A study of Mus musculus with 21 samples.

Results

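The genes described here are 6 that encode proteins of the fibroblast surface: Thy1, Cd44, Eng, Ly6a, Cd34 and Nt5e. They were picked by name from earlier results on these libraries, as genes whose mRNA seemed to persist while mouse fibroblasts were converted by chemicals and to be absent from extraembryonic endoderm (XEN) cells. All 6 were found in every library, among 43436 gene IDs shared by the 21 libraries. The levels in all groups were therefore known when they were picked, and the levels in cells on the way and in XEN cells are given as a description, with no test.

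RNA sequencing covered the route from embryonic fibroblasts to chemically induced pluripotent stem cells (CiPSC), and the reference cells of that route. The starting fibroblasts (MEF) came from E13.5 embryos and gave 2 libraries. Cells of the same culture route, called intermediate cells, gave 1 library each at day 12, day 20, day 26 and day 28 and 2 at day 16, and CiPSC gave 7, 1 per line, with 3 lines named C (C1 to C3), G1 and G3, and also N4 and N6. All of these carry the strain C57BL/6J-Tg(GOFGFP)11Imeg/RbrcxICR. Embryonic stem cells (ESC) from embryonic day 3.5 gave 2 libraries, replicate 1 of that strain and replicate 2 of C57BL/6 (B6)N. XEN cells, the cultured form of the primitive endoderm of the blastocyst, were wild-type ICR. Embryo-derived XEN cells (CeXEN, 2 libraries) were made in the stage 1 chemical medium labelled VC6TFAE with 20 ng/ml bFGF. The eXEN libraries, 2 in number, come from a XEN line already in culture: replicate 1 grew in stage 1 medium labelled VC6TF with 20 ng/ml bFGF, while replicate 2 had the traditional medium of XEN culture, so that they differ in medium and share 1 line. Strain and cell type cannot be told apart where XEN cells are set beside the others. Nothing in the labels tells if replicates are cultures of their own, and p-values measure the spread between these libraries, which may be technical.

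Values are FPKM, the fragments assigned to a gene scaled to transcript length and library size, so levels can be compared between genes. The sum of FPKM ran from 543198 to 864945 over the 21 libraries. The fibroblast gene Col1a1, a fibrillar collagen chain, stood at 1467 and 4659 FPKM in MEF. Gata4, a transcription factor of the endoderm, stood at 424 to 519 FPKM in the 4 XEN libraries and at 188 to 457 FPKM in the 6 intermediate ones. Pou5f1, the central pluripotency factor, stood at 555 and 761 FPKM in ESC. These defining genes were thus present in the cells labelled so. Files of day 12, day 16 replicate 1, day 20 and day 26 mark 446 loci as having too little data, and the files of day 16 replicate 2, day 28 and all other libraries mark none, so the intermediate files are of 2 kinds in this respect. In bulk RNA, fewer cells of a type and less RNA per cell cannot be told apart.

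These proteins serve to recognise and sort mesenchymal cells. Thy1 (CD90) is a small immunoglobulin-like protein held in the membrane by a glycosylphosphatidylinositol (GPI) anchor, binds integrins on other cells, and its loss is a classical early sign that a fibroblast leaves its identity in reprogramming with transcription factors. Ly6a (Sca-1) and Nt5e (CD73) are also GPI-anchored: Ly6a belongs to the Ly6 family of mouse stem and progenitor cells, and Nt5e is the enzyme that turns extracellular AMP into adenosine. Cd44 is a transmembrane receptor for hyaluronan, Eng (CD105) a co-receptor for TGF beta and BMP ligands that is rich in endothelium, and Cd34 a sialomucin of blood progenitors, endothelium and some stromal fibroblasts.

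The 6 genes did not share a course. In FPKM as deposited, Thy1 lay within the MEF range at day 12 and below both MEF libraries at each later day. Ly6a and Cd34 had their highest level at day 12, and Nt5e had its highest level at day 28. Cd44 and Eng were below both MEF libraries in all 6 intermediate libraries. In pluripotent cells Eng overlapped MEF, while Thy1, Cd44 and Ly6a were called lower. Cd44 was not absent from XEN cells.

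**Figure D1:**
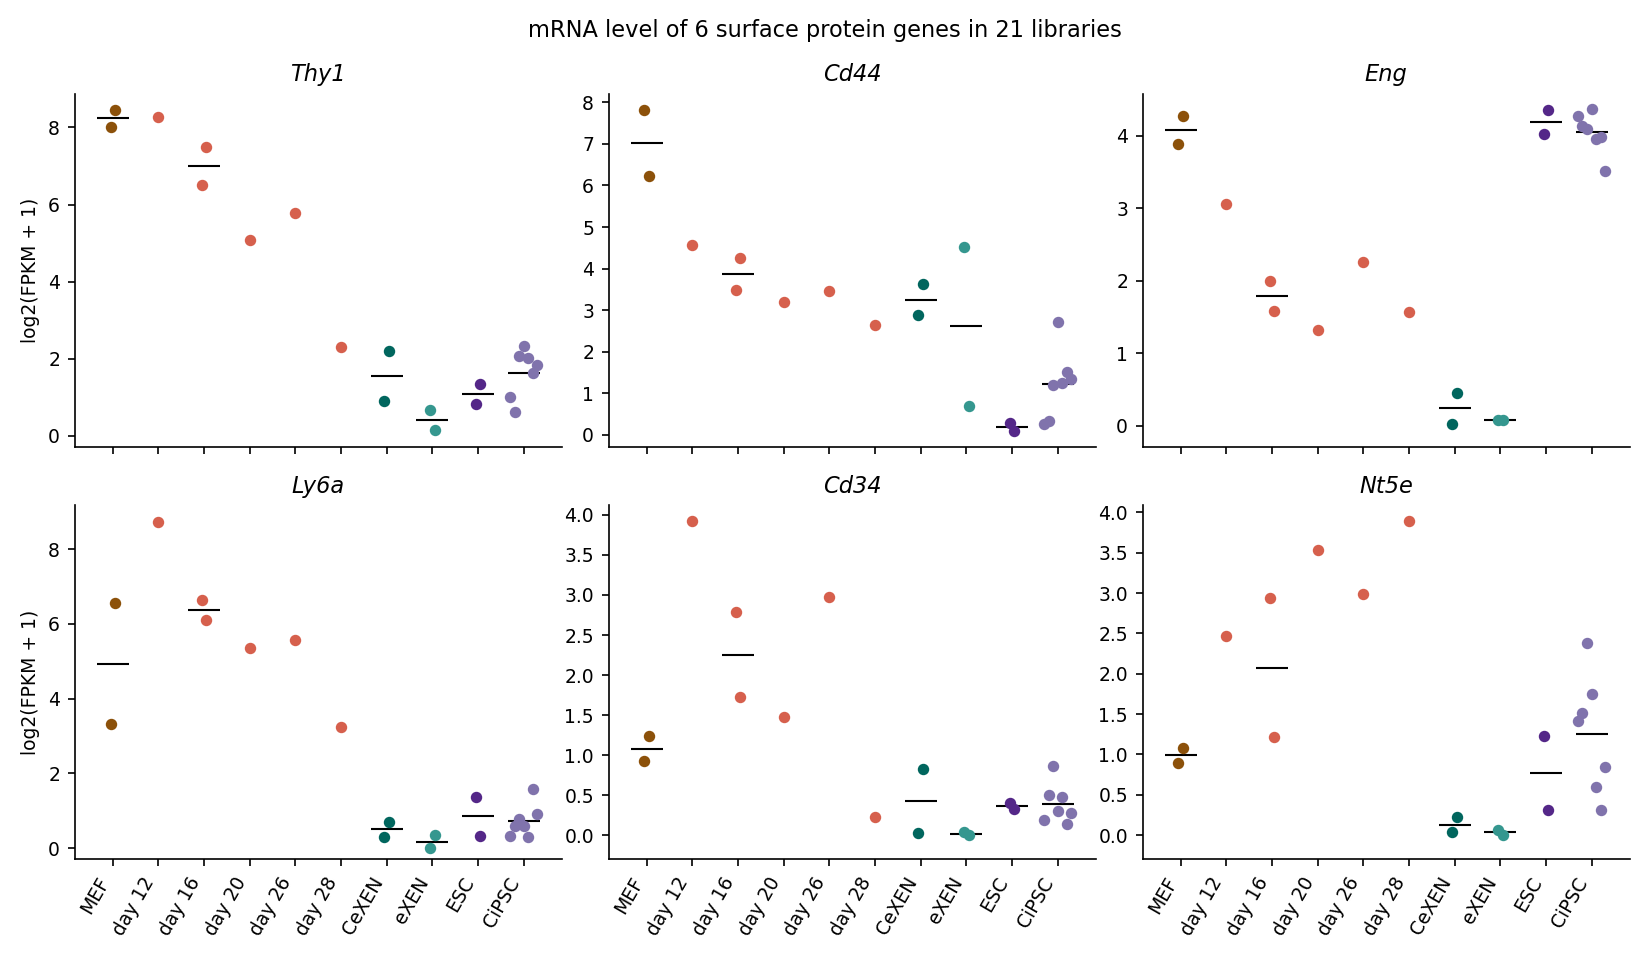
Level of each gene as log2(FPKM + 1) in 21 libraries, by group, with a point per library and a bar at the group mean where a group has more than 1 library; the vertical scale differs between panels. Thy1 at day 12 lies within the MEF range and is lower at later days, with day 26 above day 20, Nt5e is highest at day 28, Eng is high in MEF, ESC and CiPSC, and Cd44 is present in 3 of 4 XEN libraries at 6.36 FPKM or more.

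Thy1 (ENSMUSG00000032011) lies on chromosome 9, positions 44043384 to 44048579 of the plus strand (mm10), and no other annotated gene overlaps it. Its level was 259 and 353 FPKM in MEF, which placed it 340th of 18494 and 221st of 18621 genes above 0. It stood at 310.1 FPKM at day 12, within the MEF range as deposited. With each library rescaled to the same sum of FPKM, day 12 fell below both MEF libraries (425.8 against 442.1 and 649.3). At day 16 it stood at 90.2 and 178 FPKM, at day 20 at 33.0, at day 26 at 53.7 and at day 28 at 3.91 FPKM. Every intermediate library after day 12 was thus below both MEF libraries, and day 26 was above day 20. The step from day 26 to day 28 was 13.7-fold, between 2 single libraries whose files are of these different kinds. Against the MEF mean, day 28 was 78.3-fold lower.

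XEN cells held little Thy1. The level was 0.883 and 3.59 FPKM in CeXEN, and 0.588 FPKM in eXEN replicate 1 and 0.112 FPKM in replicate 2. From the confidence bounds in the files these values rest on about 27, 58, 15 and 3 fragments. The lower bound of eXEN replicate 2 is 0. The lowest intermediate library, day 28, was 1.09 times the highest XEN library, and the other 5 were far above it. By group mean the order was day 12, MEF, day 16, day 26, day 20, day 28, CiPSC, CeXEN, ESC and eXEN. Day 12 overlapped MEF, and day 28, CiPSC and CeXEN each overlapped the next in that order, while ESC and eXEN did not overlap.

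Fibroblast genes did not all follow Thy1. Col1a1 was already at 133 FPKM at day 12, 4.33% of its MEF mean, when Thy1 was at 101% of its own. Col1a1 then stood at 25.8 and 91.2 FPKM at day 16, 6.19 at day 20, 14.7 at day 26 and 1.04 FPKM at day 28. Thy1 per Col1a1 was 0.177 and 0.0757 in MEF and ran from 1.96 to 5.33 in the 6 intermediate libraries, without overlap. Within those 6, the libraries had the same order for both genes. Twist1 and Twist2, transcription factors of mesenchyme, behaved more like Thy1: at day 12 they stood at 135 and 115 FPKM, 245% and 205% of their MEF means, and at day 28 at 7.15 and 1.44 FPKM. Of a list of 23 fibroblast matrix and mesenchyme genes, 22 were at 1 FPKM or more in each MEF library, 20 to 22 from day 12 to day 26, and 13 at day 28. Their summed level was 10130 and 20270 FPKM in MEF and ran from 2044 FPKM at day 12 to 242 FPKM at day 28. Tcf21, a stromal transcription factor, was at 0 in MEF replicate 2, day 16 replicate 1 and day 26, and no other gene of the list was at 0 in MEF or intermediate libraries.

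**Figure D2:**
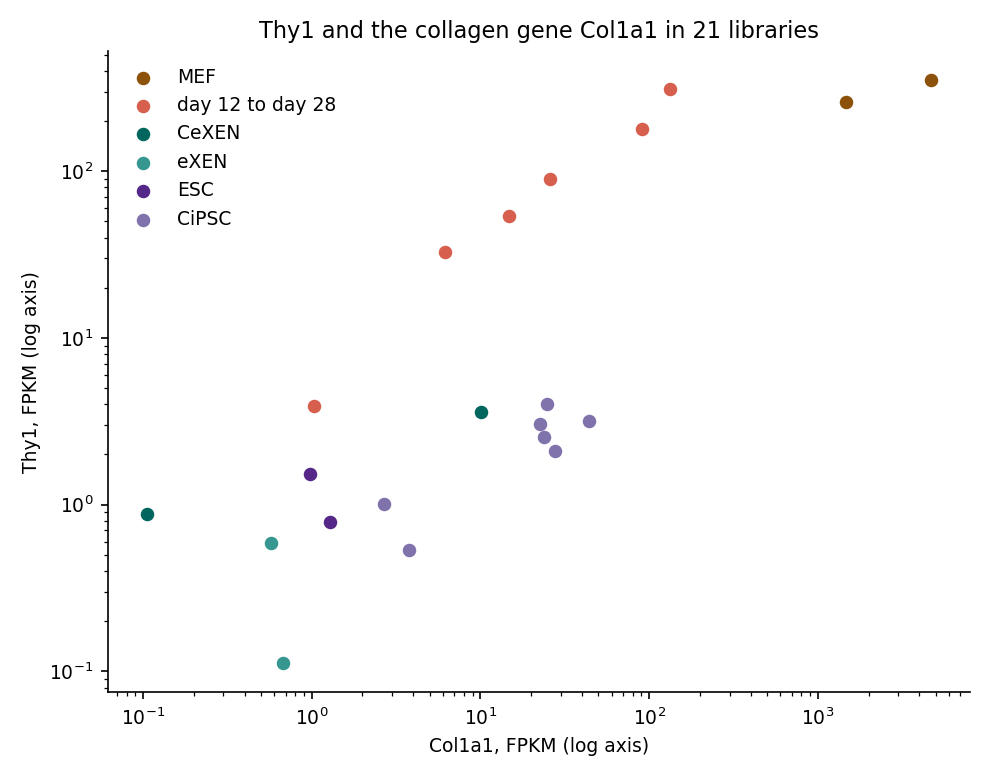
Thy1 against Col1a1, both in FPKM on log axes, with a point for each of 21 libraries. The 6 intermediate libraries have 1.96 to 5.33 FPKM of Thy1 per FPKM of Col1a1, against 0.0757 and 0.177 in MEF and 0.0722 to 0.379 in CiPSC, and the highest ratio, 8.36, is in CeXEN replicate 1, where both genes are low.

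The genes with the pattern most like Thy1 were sought by Pearson's r of log2(FPKM + 1) over 21 libraries, with predicted genes left out. The values describe libraries that fall into separate cell types and are not independent points. They were Aebp1 (r = 0.987), a secreted regulator of collagen fibres, Cdh11 (0.986), the mesenchymal cadherin, Prrx1 (0.983), a transcription factor of limb and stromal mesenchyme, Ccl7 (0.981), a chemokine, and S1pr3 (0.981), a receptor for sphingosine-1-phosphate. Cdh11 stood at 52.1% of its MEF mean at day 12, 12.3% and 27.9% at day 16 and 0.694% at day 28. Cdh11 per Thy1 ran from 0.321 to 0.417 in the 6 intermediate libraries and was 0.540 and 0.934 in MEF. Since Cdh11 was named for its likeness to Thy1, this ratio is a description only.

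Thy1 is also a gene of neurons, and neural genes moved with it in some libraries. The summed level of 13 neural genes was 43.2 and 21.3 FPKM in MEF, 82.9 at day 12, 23.8 and 110.1 at day 16, 18.7 at day 20, 97.8 at day 26 and 8.70 FPKM at day 28. The higher of the day 16 libraries and day 26 against day 20 had the higher Thy1 and the higher Col1a1 as well. In both of these Nefl and Nefm, which encode neurofilaments, had the highest levels of the list, at 29.3 to 57.2 FPKM. The oligodendrocyte gene Olig2 was at 0 in all 6 intermediate libraries. In pluripotent cells the neural sum was 78.7 and 93.0 FPKM in ESC and 88.0 to 177 FPKM in CiPSC. Thy1 stood at 3.99 FPKM or less there. The part of neural cells in the Thy1 level was not tested.

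Ly6a (ENSMUSG00000075602, chromosome 15, 74994877 to 74998031, minus strand) had the largest fold difference between the MEF libraries among the 6 genes. It stood at 8.98 and 92.6 FPKM in MEF, 10.3-fold apart. It stood at 425 FPKM at day 12, 99.7 and 68.4 FPKM at day 16, 39.6 at day 20, 46.5 at day 26 and 8.49 FPKM at day 28. Day 12 and day 16 replicate 1 were above both MEF libraries in FPKM, and day 28 was below both. With each library rescaled to the same sum of FPKM, day 16 replicate 1 fell below MEF replicate 2 (133.5 against 170.5). Against the MEF mean the day 12 level was 8.37-fold higher. In XEN cells Ly6a stood at 0.241 and 0.615 FPKM in CeXEN, was listed at 0 in eXEN replicate 1 and stood at 0.272 FPKM in replicate 2. The lower bound was 0 in all 4, and the lowest intermediate library was 13.8 times the highest of them.

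The Ly6 genes share sequence, and reads of near-identical copies could be split between them, so single values of this family are uncertain. Ly6c1 had r = 0.977 with it and stood at 1.21 and 19.3 FPKM in MEF and 244 FPKM at day 12. The other 2 genes closest to Ly6a were Tspan11 (0.98), a tetraspanin, and Scara3 (0.978), a scavenger receptor-like protein, at 95.4 FPKM at day 12. Of 16 tested Ly6 family genes, 5 were called higher and 0 lower at day 16 than in MEF, where 20.7% of all 16650 genes tested were called, 13.3% higher and 7.41% lower. Among them were Ly6c1 (log2 change 2.24 ± 0.70 SE, limma, adjusted p = 0.0271) and Ly6h (1.80 ± 0.24, adjusted p = 7.18e-05). Ly6h and Ly6d reached 1 FPKM only in intermediate libraries, so they could hardly be called lower at day 16. The counts for this list are thus partly set by the filter on low values, here and against eXEN. Without MEF replicate 1 the Ly6c1 change was 0.64 and not called (adjusted p = 0.341), and it was not called without day 16 replicate 1 either. With median-of-ratios scaling 2 of the 16 were called higher, and with single libraries left out 2 (without day 16 replicate 1) to 8 (without day 16 replicate 2). Against eXEN, 7 of 16 were called higher at day 16 and 0 lower, where 17.1% of all genes were called, 14.0% higher and 3.17% lower. Ly6e led with 6.85 ± 0.94 (adjusted p = 0.000127), at 102 and 140.1 FPKM at day 16 and 0.0496 FPKM on average in eXEN, and reached 25.0 FPKM in CeXEN replicate 2.

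Cd34 (ENSMUSG00000016494, chromosome 1, 194938819 to 194961279, plus strand) was low in MEF and higher in most intermediate libraries. It stood at 0.898 and 1.35 FPKM in MEF and 14.1 FPKM at day 12, 12.6-fold above their mean. It stood at 5.91 and 2.30 FPKM at day 16, 1.79 at day 20, 6.85 at day 26 and 0.174 FPKM at day 28. All intermediate libraries but day 28 were above both MEF libraries in FPKM, and day 28 fell within the range of XEN cells. With each library rescaled to the same sum of FPKM, day 20 fell below MEF replicate 2 (2.425 against 2.488). XEN values were 0.0223 and 0.772 FPKM in CeXEN and 0.0268 FPKM and a listed 0 in eXEN. An annotated antisense gene, Gm16897, overlaps Cd34, and since the use of strand in counting is not given, reads of the pair cannot be told apart. The closest patterns were those of the chemokine Ccl8 (r = 0.967), the steroid enzyme Hsd11b1 (0.961) and the guanine deaminase Gda (0.952). All 3 were higher at day 12 than in MEF, at day 16 or at day 28 on average, Ccl8 at 33.8 FPKM and Gda at 9.07 FPKM.

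Endothelial and blood genes were followed beside Cd34 and Eng, since both mark endothelium. Of 14 endothelial genes, 3 were at 1 FPKM or more in each MEF library, 12 at day 12 and 6 or 7 in the other intermediate libraries. Their summed level was 50.4 and 32.6 FPKM in MEF, 169 at day 12 and 156 to 206 FPKM later. In XEN cells the sum was as high or higher, at 300.3 and 347.5 FPKM in CeXEN and 205.8 and 193.7 FPKM in eXEN. There 6 and 5 of the genes were at 1 FPKM or more in CeXEN, and 4 in each eXEN library. Pecam1 stood at 2.54 FPKM at day 12 and at 0.493 FPKM or less later, and Cdh5, the endothelial cadherin, at 13.8 FPKM and then at 1.98 to 3.89 FPKM. In CeXEN, where Cd34 was low, Cdh5 stood at 4.67 and 5.58 FPKM, below day 12 and above the later intermediate libraries. Of 17 blood and macrophage genes, 9 were at 1 FPKM or more in each MEF library, 7 at day 12 and 3 or 4 later. Their summed level was 132 and 52.7 FPKM in MEF, 44.8 at day 12 and 9.92 to 23.0 FPKM later. Lyz2, the lysozyme of macrophages, stood at 92.6 and 30.2 FPKM in MEF, 12.1 FPKM at day 12 and 1.495 FPKM or less later, and Ptprc (CD45), which defines blood cells, was at 0 in all 6 intermediate libraries. The part of endothelial or blood cells in the Cd34 level at day 12 was not tested.

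Among the relatives and partners of Cd34, Podxl (podocalyxin), a sialomucin of the same family, moved far more. It stood at 0.316 ± 0.151 FPKM (SD, n = 2) in MEF and 214.5 ± 31.8 FPKM (SD, n = 2) at day 16, a log2 change of 7.35 ± 0.31 (SE, limma, adjusted p = 1.35e-09). Podxl was also at 123 to 492 FPKM in XEN cells. Of the 6 tested genes of this list, 3 were called higher and 0 lower at day 16 than in MEF, against 13.3% and 7.41% of all genes, and 2 higher and 1 lower with either scaling alternative.

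Nt5e (ENSMUSG00000032420, chromosome 9, 88327197 to 88372092, plus strand) ran in the reverse order to Thy1 over the intermediate libraries after day 12. This did not hold over all 21 libraries, where Thy1 and Nt5e had r = 0.397. Nt5e stood at 0.856 and 1.12 FPKM in MEF and 4.53 FPKM at day 12. It stood at 6.66 and 1.32 FPKM at day 16, 10.6 at day 20, 6.94 at day 26 and 13.8 FPKM at day 28. All 6 intermediate libraries were above both MEF libraries in FPKM, and day 28 was 14.0-fold above their mean. With each library rescaled to the same sum of FPKM, day 16 replicate 2 was level with MEF replicate 2 (2.074 and 2.068). The day 16 replicates differed 5.06-fold. Replicate 2, the one with the higher Thy1 and Col1a1, had the lower Nt5e. In XEN cells Nt5e stood at 0.0266 and 0.169 FPKM in CeXEN, 0.0480 FPKM in eXEN replicate 1 and a listed 0 in replicate 2. These rest on about 1, 4 and 1 fragments, so Nt5e was near the limit of detection in all XEN libraries. The lowest intermediate library was 7.81 times the highest XEN library.

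Genes that follow Nt5e most closely did so less tightly than those of the other members: Afap1l1, an actin filament associated protein, r = 0.91, Zmynd15 0.909 and Epha1, an ephrin receptor, 0.903, over 21 libraries. In the adenosine list, of nucleotidases, adenosine receptors and transporters, 6 of 15 tested genes were called higher and 0 lower at day 16 than in MEF, against 13.3% and 7.41% of all genes. With either scaling alternative 1 was called lower. Adora1, an adenosine receptor, stood at 0.343 ± 0.017 FPKM (SD, n = 2) in MEF and 42.9 ± 27.4 FPKM (SD, n = 2) at day 16, a log2 change of 4.88 ± 0.41 (SE, limma, adjusted p = 1.2e-06). Alpl, the tissue-nonspecific alkaline phosphatase, which also splits AMP, changed by 4.82 ± 0.29 (adjusted p = 3.89e-08). Against eXEN, 6 of 15 were called higher at day 16 and 1 lower, against 14.0% and 3.17% of all genes. The list was led there by Alpl at 4.71 ± 0.29 (adjusted p = 8.67e-08).

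**Figure D3:**
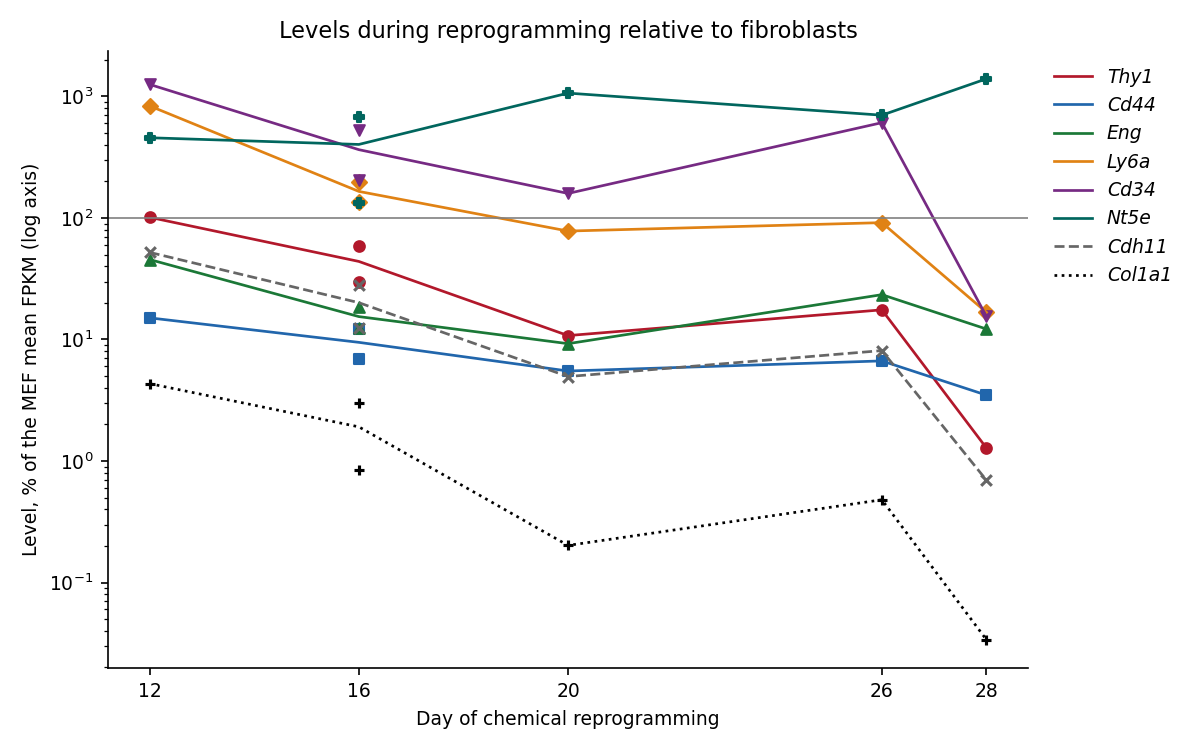
Level of the 6 genes, of Cdh11 and of Col1a1 in intermediate cells from day 12 to day 28, as a percentage of each gene's MEF mean on a log axis, with a point per library and lines through the means. Thy1 starts at 101% and ends at 1.28%, Nt5e runs from 133% to 1398% and Col1a1 starts at 4.33%.

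Cd44 (ENSMUSG00000005087, chromosome 2, 102811141 to 102901665, minus strand) went against the description by which the genes were chosen. It stood at 226 and 73.4 FPKM in MEF, 22.5 FPKM at day 12, 10.2 and 18.1 at day 16, 8.23 at day 20, 9.96 at day 26 and 5.21 FPKM at day 28. All 6 intermediate libraries were below both MEF libraries, and the MEF mean was 6.64-fold above day 12. In XEN cells Cd44 stood at 6.36 and 11.4 FPKM in CeXEN and 22.04 FPKM in eXEN replicate 1. Only eXEN replicate 2, in conventional medium, was near absence, at 0.623 FPKM. The XEN libraries in stage 1 medium thus overlapped the intermediate cells, whose range was 5.21 to 22.5 FPKM.

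The eXEN libraries differed 35.4-fold in Cd44. The bounds in the files were 20.5 to 23.6 FPKM for replicate 1 and 0.322 to 0.924 FPKM for replicate 2, and they do not overlap. All 3 XEN libraries in stage 1 medium were above the one in conventional medium. With 1 library of the line per medium there is no replicate of this difference, and no test was made. Col1a1 was about equal in the pair, at 0.573 and 0.676 FPKM, and 8 and 7 of 23 fibroblast genes were at 1 FPKM or more. Thy1 and Cd44 thus parted in XEN cells, where Cd44 made up 96.8% of the summed level of the 6 genes in eXEN replicate 1 and Thy1 made up 2.59%.

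**Figure D4:**
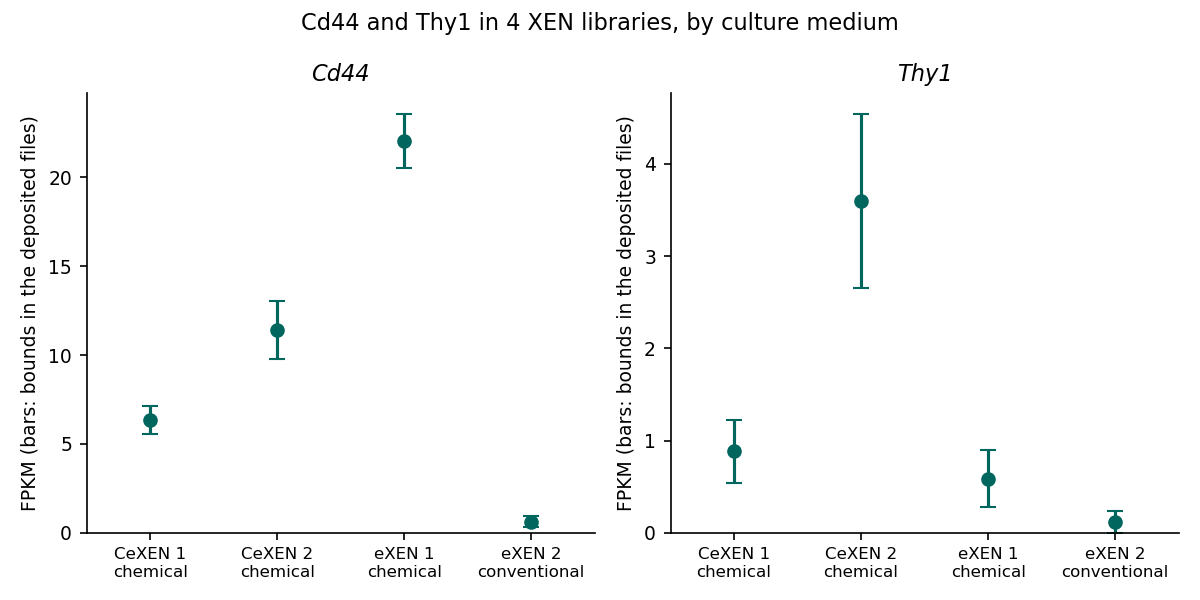
Cd44 and Thy1 in FPKM in the 4 XEN libraries, with the confidence bounds of the deposited files as bars and the type of medium under each library. Cd44 lies between 6.36 and 22.04 FPKM in the 3 libraries in stage 1 medium and at 0.623 FPKM in conventional medium, while Thy1 is at most 3.59 FPKM.

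The genes most like Cd44 over 21 libraries were Fam198b (r = 0.965), Bin1 (0.953), a membrane curving protein, and Epb4.1l3 (0.937), a linker of membrane and cytoskeleton. All 3 were at 9.51 to 19.9 FPKM on average in eXEN. Among hyaluronan genes, 1 of 11 tested was called higher and 3 lower at day 16 than in MEF, where 13.3% and 7.41% of all genes were. The synthase Has2 changed by -3.68 ± 0.47 (SE, limma, adjusted p = 5.22e-05), from 19.9 ± 19.0 FPKM (SD, n = 2) in MEF to 0.247 ± 0.151 FPKM (SD, n = 2). The hyaluronan-binding proteoglycan Vcan changed by -3.71 ± 0.52 (adjusted p = 0.000125). Against eXEN, 2 of the 11 were called higher at day 16 and 0 lower, a share near the 14.0% of all genes called higher. The larger change was that of Spp1 (osteopontin), which also binds Cd44, at 6.98 ± 0.61 (adjusted p = 2.91e-06).

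Eng (ENSMUSG00000026814, chromosome 2, 32646595 to 32682669, plus strand) was low in intermediate cells and high at both ends of the route. It stood at 13.8 and 18.4 FPKM in MEF, 7.31 FPKM at day 12, 2.98 and 1.98 at day 16, 1.48 at day 20, 3.76 at day 26 and 1.96 FPKM at day 28. All 6 intermediate libraries were below both MEF libraries and above all XEN libraries, the lowest being 4.04 times the highest XEN value. XEN levels were 0.0157 and 0.367 FPKM in CeXEN and 0.0567 and 0.0540 FPKM in eXEN, each with a lower bound of 0. In ESC Eng stood at 15.3 and 19.4 FPKM, and in CiPSC between 10.4 and 19.6 FPKM with a median of 16.0. Fpgs, on the opposite strand, and 3 small RNA genes overlap the Eng locus, so part of the reads cannot be assigned to 1 gene with certainty.

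Cd44 and Eng were both below MEF in all 6 intermediate libraries and parted in pluripotent and XEN cells. The step differed in size, with the MEF mean 6.64-fold above day 12 for Cd44 and 2.20-fold for Eng. For both, the stretch before the RefSeq start lies outside the annotated span of the gene itself. Other genes over these stretches were not looked for. The 250 bases before the RefSeq start of each (GRCm38.p6) are shown for comparison, Cd44 at chr2:102901666-102901915 on the minus strand and Eng at chr2:32646345-32646594 on the plus strand, with CpG sites in capitals.
Cd44: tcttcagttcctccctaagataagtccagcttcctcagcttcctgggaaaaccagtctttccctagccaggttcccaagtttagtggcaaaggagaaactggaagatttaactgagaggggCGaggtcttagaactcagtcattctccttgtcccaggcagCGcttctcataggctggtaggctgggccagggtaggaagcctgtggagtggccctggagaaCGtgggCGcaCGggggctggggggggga
Eng: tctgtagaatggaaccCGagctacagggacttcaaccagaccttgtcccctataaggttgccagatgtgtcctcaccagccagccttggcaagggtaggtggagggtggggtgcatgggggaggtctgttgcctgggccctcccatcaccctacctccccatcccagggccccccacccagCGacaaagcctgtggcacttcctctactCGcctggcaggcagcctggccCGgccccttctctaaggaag
The Cd44 stretch holds 5 CpG sites and is 56.4% G or C, and that of Eng holds 4 and is 62.4%, against a median of 6 CpG sites over 32851 such stretches. On both strands, the letters AGATAA, read by GATA factors, occur once in that of Cd44 and not in that of Eng, and are found in 10% of all such stretches. GGGCGG (in 32.7% of all), TATAAA (12.4%) and TGANTCA (6.7%) are in neither. A match is a description of the sequence only. For Thy1 and Ly6a no such stretch is given here.

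The patterns nearest to Eng were those of Cd97 (r = 0.983), an adhesion receptor that also binds Thy1, Fblim1 (0.962), a filamin-binding protein, and Rarg (0.954), a retinoic acid receptor. All 3 had higher means in MEF and CiPSC than at day 28, as for Cd97 with 42.0, 32.0 and 5.38 FPKM. In the list of TGF beta and BMP receptors and ligands, 1 of 17 tested genes was called higher and 6 lower at day 16 than in MEF, and 1 and 9 with either scaling alternative. Of all genes 13.3% were called higher and 7.41% lower. Acvrl1 (ALK1), the receptor that Eng assists, changed by -1.77 ± 0.36 (SE, limma, adjusted p = 0.00225). Tgfbr2, the main TGF beta receptor, stood at 29.7 ± 19.3 FPKM (SD, n = 2) in MEF and 35.6 ± 8.0 FPKM (SD, n = 2) at day 16 (adjusted p = 0.45).

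Pluripotent cells were not named in the pattern by which the genes were picked. Their levels were known at that time too, and a fibroblast gene was likely to be picked for a high MEF level. The calls below therefore describe these genes and are no independent evidence about them. Thy1, Cd44 and Ly6a, 3 of 6, were called lower in CiPSC than in MEF, and 0 of 6 higher. Over all genes tested 37.0% were called, 21.7% higher and 15.3% lower. Thy1 averaged 306 ± 66.0 FPKM (SD, n = 2) in MEF and 2.35 ± 1.23 FPKM (SD, n = 7) in CiPSC, which is a log2 change of -6.60 ± 0.44 (SE, limma, adjusted p = 2.76e-08). Cd44 changed by -5.79 ± 0.78 (adjusted p = 2.43e-05), from 149.5 ± 107.7 FPKM (SD, n = 2) to 1.73 ± 1.80 FPKM (SD, n = 7). Ly6a changed by -4.21 ± 0.58 (adjusted p = 3.06e-05), and without MEF replicate 2 by -2.59. All 7 lines were below both MEF libraries for these 3 genes.

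The other 3 genes were not called. Eng differed by -0.04 on the log2 scale with a 95% interval of -0.52 to 0.45 (limma, adjusted p = 0.914), so a change by 1 log2 unit lies outside the interval. Nt5e differed by 0.27 with an interval of -0.79 to 1.33 (adjusted p = 0.673), so a rise by 1 unit lies inside it. Cd34 differed by -0.68 ± 0.27 (SE, adjusted p = 0.0445), below the size of 1 log2 unit required for a call, and with a pseudocount of 0.1 it was called at -1.65. Cd34 entered the test only through intermediate libraries, since elsewhere MEF replicate 2 alone reached 1 FPKM, so its values are a description only. Over the alternatives its adjusted p ran from 0.00787 to 0.262.

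ESC share the MEF libraries with that comparison, so the values of both are given side by side only. In ESC the same 3 genes were called lower than in MEF, where 36.4% of all genes were called, 21.3% higher and 15.1% lower: Thy1 by -7.16 ± 0.55 (SE, limma, adjusted p = 2.13e-07), Cd44 by -6.82 ± 0.98 (adjusted p = 6.14e-05) and Ly6a by -4.08 ± 0.73 (adjusted p = 0.000391). Without MEF replicate 2 the Ly6a change was -2.47, and it lost its call when only MEF and ESC were fitted (adjusted p = 0.0837). Eng differed by 0.11 (95% interval -0.50 to 0.72). ESC levels of Thy1 were 0.784 and 1.52 FPKM and those of Cd44 0.227 and 0.0731 FPKM.

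**Figure D5:**
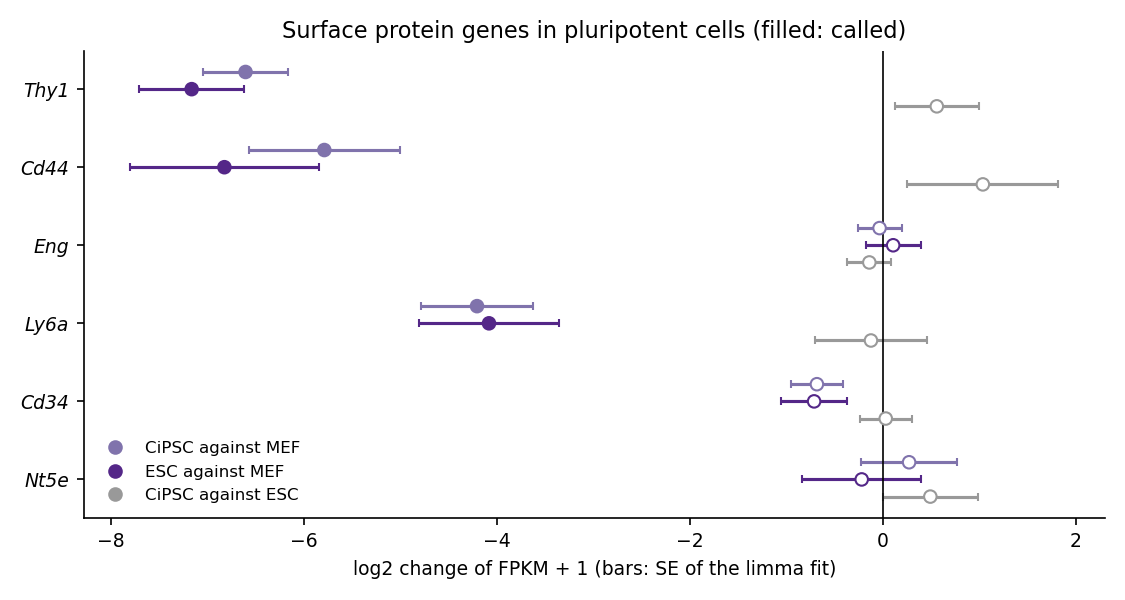
Log2 change of FPKM + 1 of each gene in CiPSC against MEF, ESC against MEF and CiPSC against ESC, with the SE of the limma fit as bars and filled points for called changes. Thy1, Cd44 and Ly6a lie between -7.16 and -4.08 in both comparisons with MEF, and Eng lies at -0.04 and 0.11.

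None of the 6 genes was called between CiPSC and ESC, where limma called 0.0601% of all genes (10 genes), 0.0360% higher and 0.0240% lower, and none had an unadjusted p under 0.05, the smallest being 0.206 for Cd44. Thy1 was at 0.56 ± 0.44 (SE, adjusted p = 0.782) with a 95% interval of -0.38 to 1.49. Cd44 was at 1.03 ± 0.78 (adjusted p = 0.77) with an interval of -0.64 to 2.71, which leaves room for a difference of several fold. Eng was at -0.14 with an interval of -0.63 to 0.35.

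The CiPSC lines C1 and C2 were below the other lines for Thy1, Cd44 and Col1a1. Thy1 stood at 1.015 FPKM in C1, 0.536 in C2, 3.18 in C3, 3.99 in G1, 3.06 in G3, 2.09 in N4 and 2.56 FPKM in N6. Col1a1 stood at 2.68 FPKM in C1, 3.76 in C2, 44.0 in C3, 24.9 in G1, 22.5 in G3, 27.5 in N4 and 23.8 FPKM in N6. C1 and C2 were thus the lowest of the 7 for both genes. The other 5 lines had no common order. N4 was the lowest of them for Thy1 but above G1, G3 and N6 for Col1a1. In C1 and C2, 7 and 6 of the 23 fibroblast genes were at 1 FPKM or more, against 14 to 18 in the other 5 lines. The summed level of the 23 ran from 318 to 569.5 FPKM over the 7 lines and was 266 and 306 FPKM in ESC. Cd44 stood at 0.206 and 0.256 FPKM in C1 and C2 and at 1.302 to 5.54 FPKM in the others. Eng did not share this split, with 18.4 and 16.5 FPKM in C1 and C2. Nt5e did not either, at 1.68 and 1.87 FPKM there and 0.242 to 4.20 FPKM in the others. Ly6a was lowest in G3 and Cd34 in N4. Tcf21 was at 0 in all 7 lines, and Dcn or Lum in each. CeXEN showed the same pairing, with Thy1 at 0.883 and 3.59 FPKM, Col1a1 at 0.106 and 10.1 FPKM, and 8 and 16 of 23 fibroblast genes at 1 FPKM or more in replicates 1 and 2. The part of fibroblast RNA in the Thy1 level of these libraries was not tested.

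Other surface genes of fibroblasts were mostly lower in pluripotent and intermediate cells. Of a list of 32, 23 were called lower and 3 higher in CiPSC than in MEF, and 22 and 3 in ESC. Of all genes 15.3% were called lower and 21.7% higher in CiPSC, and 15.1% and 21.3% in ESC. At day 16, 20 were called lower and 6 higher than in MEF, where 7.41% and 13.3% of all genes were, and without day 16 replicate 1 the 6 became 3. The median log2 change of the list at day 16 was -2.20, against 0.22 over all genes tested. Cdh11 fell by 7.29 on the log2 scale in CiPSC (adjusted p = 1.82e-09), and Pdgfrb, the PDGF receptor of stromal cells, fell by 4.82 at day 16 (adjusted p = 5.99e-06). Dpp4, a surface peptidase of fibroblasts, rose by 4.32 at day 16 (limma, adjusted p = 5.08e-06), from 0.263 ± 0.009 to 24.7 ± 7.2 FPKM (SD, n = 2 each). Dpp4 was above MEF in the other groups too, at 3.3 to 14.8 FPKM in XEN cells and 4.7 to 14.8 FPKM in ESC and CiPSC. Against eXEN, 11 of the 32 were called higher at day 16 and 2 lower, with a median of 0.88 against 0.23 over all genes, and 7 and 3 with quantile normalization or without day 16 replicate 2. Of all genes 14.0% were called higher and 3.17% lower there. Pdpn (podoplanin) led there at 5.65 ± 0.68 (adjusted p = 4.83e-05), and stood at 598 and 467 FPKM in CeXEN, so it was not low in all XEN cells.

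The integrins and other partners that bind Thy1 were called lower at day 16 than in MEF in 6 of 9 tested genes, and higher in 0, against 7.41% and 13.3% of all genes. Itgb1, the common beta chain, stood at 509 ± 119 FPKM (SD, n = 2) in MEF and 90.0 ± 40.1 FPKM (SD, n = 2) at day 16, a log2 change of -2.54 ± 0.27 (SE, limma, adjusted p = 1.12e-05). Itgav changed by -2.95 ± 0.33 (adjusted p = 1.44e-05) and stood between 15.1 and 20.2 FPKM in the 6 intermediate libraries. Of 27 tested genes that build or attach GPI anchors, 3 were called higher and 0 lower at day 16 than in MEF, a share near the 13.3% of all genes called higher. Thy1, Ly6a and Nt5e all carry this anchor.

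Scaling moved the balance of calls over all genes. As deposited, the median gene differed from MEF by 0.25 on the log2 scale in CiPSC and 0.22 at day 16, and 3620 genes were called higher and 2547 lower in CiPSC. With quantile normalization the split was 2896 and 2936, and with median-of-ratios scaling 2723 and 3099. At day 16 the split was 2219 higher and 1233 lower than in MEF as deposited, 1558 and 1758 after quantile normalization and 1575 and 1763 with median-of-ratios. In ESC it was 3548 and 2518, then 2934 and 2957, and 2751 and 3156. Against eXEN it was 2326 and 527, then 1349 and 1189, and 1953 and 876. The calls of Thy1, Cd44 and Ly6a in CiPSC and ESC held under both scalings.

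Over the 6 genes, the summed level was 509.5 and 539.5 FPKM in MEF, 783 at day 12, 216 and 270.5 at day 16, 94.7 at day 20, 128 at day 26 and 33.6 FPKM at day 28. Thy1 and Ly6a together made up most of it up to day 26. At day 28 Nt5e alone made up 41.2% and Thy1 11.7%. In ESC and CiPSC, with sums of 16.4 to 32.2 FPKM, Eng made up 60.7% to 89.2%. Over 21 libraries Thy1 and Ly6a correlated at r = 0.906, Ly6a and Cd34 at 0.877 and Thy1 and Eng at 0.084, as a description of libraries that fall into separate cell types.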

How the data were processed

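RNA was measured in 21 mouse libraries. The deposited files hold FPKM values per gene with confidence bounds, which the authors obtained through TopHat and Cufflinks with the mm10 build, per the submitters' processing notes; versions and use of strand are not given in the sources used here. Read counts were not used, and depth is known only through the bounds. Only 36.7% to 45.9% of low values came out as whole fragments. For Thy1 and Nt5e the fragments behind a value were estimated from the bounds.

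The scale of analysis was log2(FPKM + 1), where changes of low genes come out too small. Genes at 1 FPKM or more in at least 2 libraries were tested (16650). Genes that passed only through intermediate libraries could hardly be called lower there. All 21 libraries entered 1 limma 3.58.1 fit (R 4.3.3) with a coefficient per group, an intensity trend and 11 residual degrees of freedom. p-values were adjusted by Benjamini-Hochberg over all genes tested in each of 5 comparisons, and a call needs an adjusted p under 0.05 and 1 log2 unit. The fit was run on simulated data with few changed genes and otherwise equal group means, so that run is no evidence for the calls given here. Single libraries add no degrees of freedom, and a group left with 1 library was assumed to vary like the others.

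The members and lists were chosen with earlier results of these data known. All 6 members passed the filter on low values, Cd34 only because intermediate libraries were counted. Named beside them were up to 4 called genes with the largest change per list and comparison, of which some are given, Col1a1, Gata4 and Pou5f1, and the genes with the most similar pattern (5 for Thy1, 3 for each other member); Acvrl1, Ptprc, Tcf21, Dcn and Lum were named after their values were seen. Coordinates are mm10, counted from 1. Sequences are from RefSeq (GRCm38.p6), where 4 of 6 members matched. Alternatives covered the pseudocount, filters, scaling, the fit, the replicate block and each replicate left out.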

Additional observations from a re-analysis of the deposited data

Results flagged for a closer look

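The 7 CiPSC lines were the only group large enough for a check of single samples. In FPKM, 3 of 6 genes had a line flagged as high. Cd44 stood at 5.54 FPKM in G1, with the next line at 1.86 FPKM. Ly6a stood at 1.98 FPKM in N4, with the next at 0.890 FPKM. Cd34 stood at 0.818 FPKM in C3, with the next at 0.413 FPKM, and its bounds in the file run from 0 to 1.85 FPKM. The gap to the next line, as a share of the whole range, was 0.69, 0.623 and 0.57, against Dixon's critical value of 0.568. Chance flags about 1 in 20 groups if values follow a normal distribution, which low FPKM values need not do. On the log2 scale used for the tests these gaps are a smaller share of the range, and the check was not run there. The lines differ for each gene.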

How the results depend on the processing

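Over all alternatives, Thy1 and Cd44 were called lower than MEF in CiPSC (17 settings) and ESC (12), and Ly6a in CiPSC; Ly6a in ESC lost its call when only the groups compared were fitted. The same setting left 0 called genes in limma at day 16 against MEF (4062 at an unadjusted p under 0.05), and 533 at day 16 against eXEN, with 2 residual degrees of freedom in place of 11. Between CiPSC and ESC the same setting raised the calls from 10 to 26. There, 5 genes were called with a filter of 5 FPKM and 5 with a pseudocount of 0.1; the cause was not tested.

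Small differences changed sign, none of them called. Eng, ESC against MEF, was -0.028 with quantile normalization and -0.181 with median-of-ratios, and Cd34, CiPSC against ESC, was -0.014 with a pseudocount of 0.1. With single replicates left out, Eng ran from -0.23 to 0.159 in CiPSC against MEF (above 0 without MEF replicate 2 or CiPSC replicate 7), from -0.089 to 0.3 in ESC against MEF (below 0 without MEF replicate 1 or ESC replicate 2), and from -0.303 to 0.021 between CiPSC and ESC (above 0 without ESC replicate 2). Nt5e in ESC against MEF ran from -0.68 to 0.24 (above 0 without ESC replicate 2). Between CiPSC and ESC, Ly6a ran from -0.644 to 0.397 (above 0 without ESC replicate 1) and Cd34 from -0.049 to 0.071 (below 0 without ESC replicate 2 or CiPSC replicate 3). Leaving out single replicates gave 5333 to 6206 called genes in CiPSC against MEF, 5358 to 5909 in ESC against MEF, 9 to 51 between CiPSC and ESC (51 without ESC replicate 1), 2490 to 3688 at day 16 against MEF and 1928 to 3135 against eXEN.

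With group means of 10 groups in place of 21 libraries, 2 of the 5 genes named for Thy1 were kept, and of 3 each 0 for Cd44, 1 for Eng, 1 for Ly6a, 2 for Cd34 and 0 for Nt5e, so these names depend on the weight of the groups. Replicate numbers did not pair samples (correlations of deviations 0.0201 for ESC with MEF, -0.0993 for day 16 with MEF and -0.116 for day 16 with eXEN). With the replicate block 6146, 6042, 9, 3472 and 2838 genes were called in CiPSC and ESC against MEF, CiPSC against ESC, and day 16 against MEF and eXEN. The crossed pairing, chosen after seeing the data, gave 3004 in the last. Depth limits low values, which rest on few fragments or none. Thy1 at 0.112 FPKM in eXEN replicate 2 rested on about 3 fragments. Ly6a at 0.890 FPKM in CiPSC line N6 still had a lower bound of 0.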
